A study of Homo sapiens with 6 samples.

Results

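The plasminogen system and the matrix metalloproteinase (MMP) and tissue inhibitor of metalloproteinase (TIMP) genes are described here by 9 genes, PLAU, PLAUR, PLAT, SERPINE2, MMP1, MMP10, MMP14, TIMP1 and TIMP2. They were chosen by gene name from a table of 58735 genes, and all 9 were found in it, each with 1 row. RNA sequencing had been done on 6 libraries of T24 cells, a human bladder cancer line. Of these, 3 are labelled sgOTUD1, with an OTUD1 knockout given as their genotype, and 3 are labelled sgNC, with an empty vector as negative control. Both groups are the same line grown in the same serum-containing medium. The comparison asks which transcripts differ between cells labelled as lacking OTUD1, a deubiquitinase, and control cells. The labels do not say whether the cells labelled sgOTUD1 are 1 clone or a pool, nor whether replicates are separate cultures. Each p-value therefore rests on differences among libraries of a group that could be purely technical.

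Urokinase (PLAU) and tissue-type plasminogen activator (PLAT) are serine proteases that cut plasminogen into plasmin, a protease that digests fibrin and matrix proteins. Urokinase acts at the cell surface when bound to its receptor (PLAUR), and serpins such as SERPINE2 trap both activators. Plasmin can activate secreted pro-MMPs, and TIMPs bind the active site of MMPs and block it. The system is studied in bladder cancer for its part in invasion of the bladder wall.

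Assigned reads numbered 16697370 to 17191933 per library. Levels are in FPKM, fragments scaled to exon length and to a library size. That size, worked out from the values, was 0.957 to 0.969 times the assigned reads in the sgOTUD1-labelled libraries. In sgNC it was 1.04 to 1.06 times the assigned reads, so this scaling differed between the groups. Exon length covers all annotated exons of a gene, so levels set side by side between genes depend on the annotation. OTUD1 itself was at 16.2, 17.9 and 17.1 FPKM in the sgOTUD1-labelled libraries, against 13.9, 15.6 and 14.6 FPKM in sgNC. The targeted transcript was therefore not lower in the libraries that carry its label, and its RNA level neither backs the label nor decides against it. Its log2 fold change was 0.20 (SE 0.054, limma adjusted p = 0.0167), and the call ended with median-ratio rescaling (0.07), with TPM (0.06) and with length correction (0.02). It also ended without sgNC replicate 1 (0.17) or sgOTUD1 replicate 2 (0.17). The edited site is not stated in the labels, and RNA level alone does not show whether OTUD1 protein was made. Every direction below is that of libraries labelled sgOTUD1 relative to sgNC. Reads from the mitochondrial genome made up 2.08% to 2.23% of reads in the sgOTUD1-labelled libraries and 3.80% to 4.11% in sgNC, and their part in the results was not tested. Of 19 urothelial and epithelial markers, 14 reached 1 FPKM in at least 1 library. Of the 14 tested, 8 were called higher and 3 lower (57.1% and 21.4%, against 31.2% and 24.7% of all genes tested). The most abundant, KRT17, was at 2443 FPKM in the sgOTUD1-labelled libraries and 1818 FPKM in sgNC (called higher). CDH1 (48.2 FPKM in the sgOTUD1-labelled libraries and 69.1 FPKM in sgNC) was called lower. So was TP63, at 36.0 FPKM in the sgOTUD1-labelled libraries and 41.2 FPKM in sgNC. KRT20, PPARG, UPK1A and UPK1B, which mark differentiated urothelium, were below 0.5 FPKM in every library, and UPK3A was listed at 0. Other markers of that kind were present, with UPK2 at 1.89 FPKM in the sgOTUD1-labelled libraries and 1.45 FPKM in sgNC (not called) and UPK3B at 2.17 FPKM in the sgOTUD1-labelled libraries and 2.97 FPKM in sgNC (called lower). GATA3 was at 4.94 FPKM in the sgOTUD1-labelled libraries and 3.96 FPKM in sgNC and FOXA1 at 5.70 FPKM in the sgOTUD1-labelled libraries and 2.87 FPKM in sgNC, both called higher. MMP and TIMP genes are often made by fibroblasts, and the 10 fibroblast markers summed to between 7.15 and 7.32 FPKM in the sgOTUD1-labelled libraries and to between 9.50 and 10.1 FPKM in sgNC. Most of that sum came from COL1A1, at 3.85 FPKM in the sgOTUD1-labelled libraries and 5.87 FPKM in sgNC, and FAP, at 3.37 FPKM in the sgOTUD1-labelled libraries and 4.01 FPKM in sgNC, both called lower. COL3A1, LUM, PDGFRB and POSTN were listed at 0 in every library. The 7 endothelial markers summed to 0.763 to 0.920 FPKM in the sgOTUD1-labelled libraries and 2.64 to 2.79 FPKM in sgNC. The 9 leukocyte markers summed to 0.505 to 0.620 FPKM in the sgOTUD1-labelled libraries and 1.13 to 1.43 FPKM in sgNC. CDH5 made up most of the endothelial sum, at 0.644 FPKM in the sgOTUD1-labelled libraries and 2.20 FPKM in sgNC, and CSF1R most of the leukocyte sum, at 0.429 FPKM in the sgOTUD1-labelled libraries and 1.14 FPKM in sgNC, and both were called lower. KDR, PTPRC and TYROBP were listed at 0 in every library. All 3 sums were lower in the sgOTUD1-labelled libraries, the last 2 through mainly 1 gene each. The 6 mesenchymal markers went the other way, summing to 76.3 to 79.5 FPKM in the sgOTUD1-labelled libraries and 54.4 to 57.1 FPKM in sgNC. Of the 4 tested, VIM, TWIST1 and SNAI2 were called higher and CDH2 lower (75% and 25%, against 31.2% and 24.7% of all genes tested). The part of other cell types in the results was not tested.

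Both plasminogen activators, the urokinase receptor, SERPINE2 and TIMP1 were higher in the sgOTUD1-labelled libraries, and no gene of the 9 was called lower. With limma on log2(FPKM + 1) and an adjusted p under 0.05, 5 of the 9 genes were called higher and 0 lower, while 3 were not called and 1 (MMP10) was too low to be tested. Over all 14658 genes tested, 31.2% were called higher and 24.7% lower, so calls were common and 55.9% of genes were called in one direction or the other. The split depends on scaling between libraries. Median-ratio rescaling puts libraries on the same median ratio over well-expressed genes, and TPM sets the same total for each library. With median-ratio rescaling 22.3% of 14670 genes were called higher and 34.0% lower. With TPM 16.2% of 19388 genes were called higher and 27.8% lower. More genes passed the minimum level with TPM, so its shares are over a larger set and differ not through scaling alone. The 5 genes called higher were PLAU, PLAUR, PLAT, SERPINE2 and TIMP1. For these and for MMP14 the 2 groups had separate ranges, as was so for 64.0% of all genes tested. In these bulk libraries, fewer cells with a transcript and less of it per cell cannot be told apart. In the plot of FPKM per library, the separation of the groups can be read gene by gene.

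**Figure D1:**
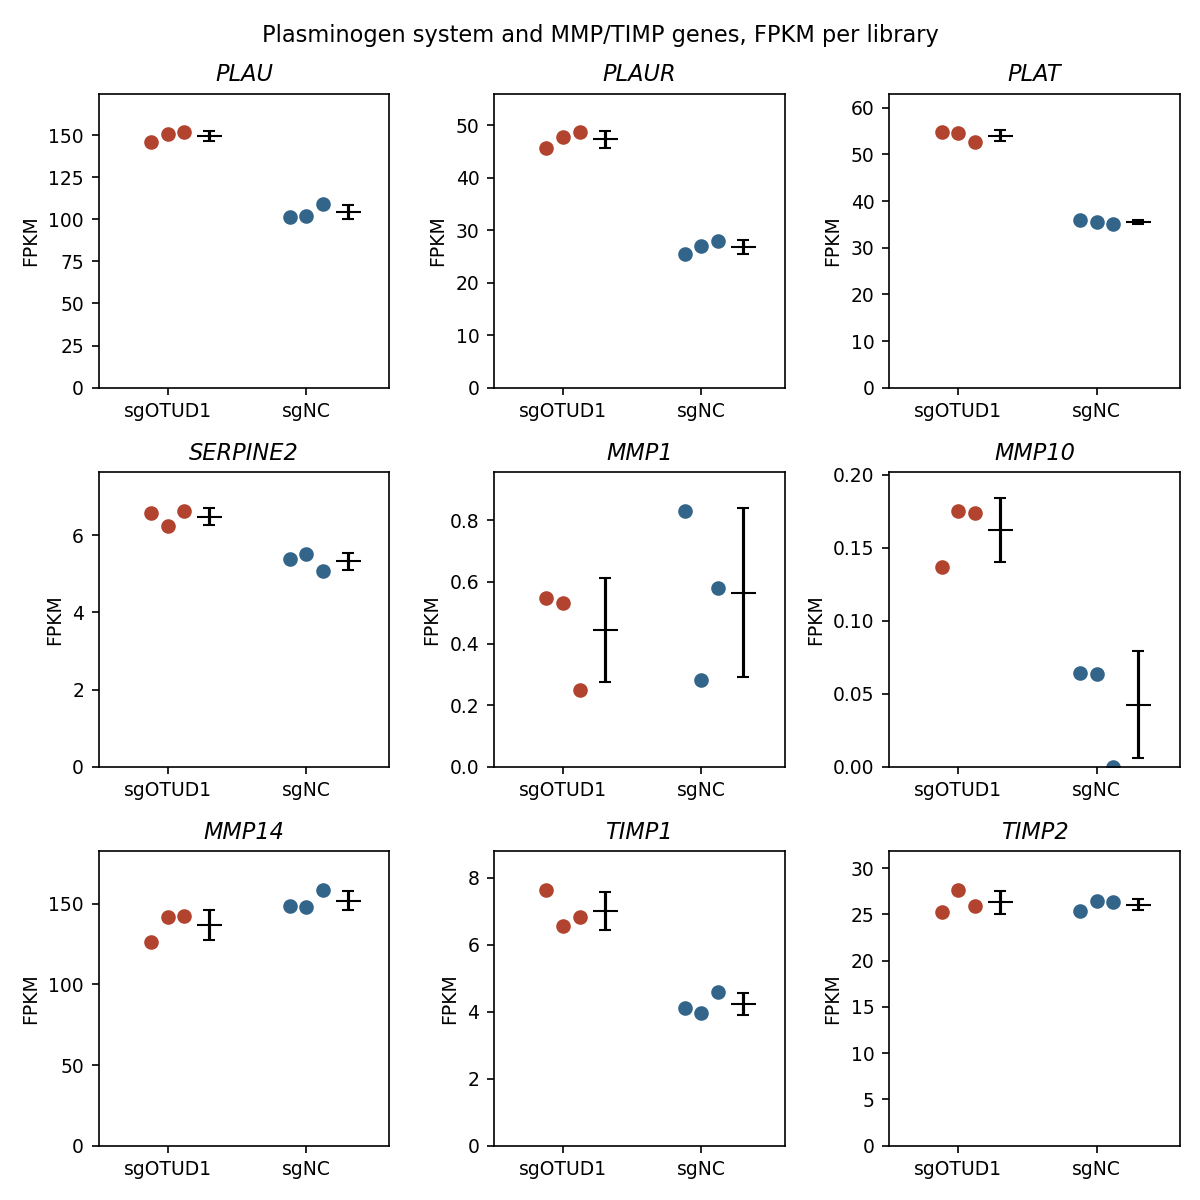
FPKM (vertical axes, from 0) of the 9 genes in the 3 libraries labelled sgOTUD1 (red, left) and the 3 sgNC libraries (blue, right), with the mean and SD of each group in black. The groups are apart for PLAU, PLAUR, PLAT, SERPINE2, MMP10, MMP14 and TIMP1, and MMP1 and TIMP2 overlap.

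PLAUR, PLAU and TIMP1 stayed called higher under all 15 alternatives run. The 250 bases before their RefSeq starts are shown, 5′ to 3′ on the gene's strand, from build GRCh38.p14. PLAT also stayed called higher, and its window is not shown. Capitals mark matches on either strand to the AP-1 element TGANTCA, which reads the same on both strands, or to the GC box GGGCGG. The PLAUR window is chr19:43670170-43670419 on the minus strand. The PLAU window is chr10:73910882-73911131 on the plus strand, before the start that 3 of the 5 annotated PLAU transcripts share within 50 nt. The TIMP1 window is chrX:47582186-47582435 on the plus strand.
PLAUR: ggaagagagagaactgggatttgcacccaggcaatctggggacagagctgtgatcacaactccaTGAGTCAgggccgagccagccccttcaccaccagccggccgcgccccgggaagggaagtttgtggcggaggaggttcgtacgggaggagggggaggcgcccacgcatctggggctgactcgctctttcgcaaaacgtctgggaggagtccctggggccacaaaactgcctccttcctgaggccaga
PLAU: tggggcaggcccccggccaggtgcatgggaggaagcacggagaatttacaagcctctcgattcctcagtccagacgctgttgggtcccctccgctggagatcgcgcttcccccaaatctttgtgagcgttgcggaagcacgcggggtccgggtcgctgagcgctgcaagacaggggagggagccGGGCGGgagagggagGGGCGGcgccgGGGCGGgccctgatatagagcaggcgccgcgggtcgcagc
TIMP1: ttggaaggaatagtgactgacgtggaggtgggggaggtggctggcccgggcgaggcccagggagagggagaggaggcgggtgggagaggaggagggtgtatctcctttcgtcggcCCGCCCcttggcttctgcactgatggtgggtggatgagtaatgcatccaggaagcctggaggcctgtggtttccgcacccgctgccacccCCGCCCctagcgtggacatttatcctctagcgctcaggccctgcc
The 3 windows differ in what they hold. The PLAUR window has 1 AP-1 match, with its first base at position -186 from the start, and no GC box match. The PLAU window has 3 GC box matches, at -66, -51 and -40, and the TIMP1 window has 2 on the opposite strand, at -135 and -45. Neither of these has an AP-1 match. Among 35116 promoter windows of the same length, 6.57% hold an AP-1 match and 42.6% a GC box match, so the letters shared by PLAU and TIMP1 are common ones. A match is a description of the sequence and does not show binding.

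Urokinase was the most abundant of the 9 transcripts in the sgOTUD1-labelled libraries. PLAU (ENSG00000122861, chromosome 10, 73909177 to 73917497, plus strand of hg38) was at 146, 150.5 and 152 FPKM in the sgOTUD1-labelled libraries, against 102, 102 and 109 FPKM in sgNC. All 3 libraries labelled sgOTUD1 were above all 3 sgNC libraries. The means were 149 ± 3.2 FPKM in the sgOTUD1-labelled libraries and 104 ± 4.0 FPKM in sgNC (SD, n = 3 each), a ratio of 1.43. The log2 fold change was 0.52 (SE 0.038, limma adjusted p = 4.74e-05). It was 0.34 after the relation of fold change to exon length was removed (limma adjusted p = 9.98e-05), a correction described with the processing. An antisense neighbour, C10orf55, overlaps PLAU and was at 1.35 FPKM in the sgOTUD1-labelled libraries and 1.10 FPKM in sgNC.

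The urokinase receptor had a larger fold change than the other 7 genes tested. PLAUR (ENSG00000011422, chromosome 19, 43646095 to 43670547, minus strand) was at 45.6, 47.7 and 48.8 FPKM in the sgOTUD1-labelled libraries, against 25.5, 27.1 and 27.9 FPKM in sgNC. The lowest sgOTUD1-labelled library lay well above the highest sgNC library. The means were 47.4 ± 1.6 FPKM in the sgOTUD1-labelled libraries and 26.8 ± 1.3 FPKM in sgNC (SD, n = 3 each), a ratio of 1.77. Its log2 fold change was 0.80 with an SE of 0.046 (limma adjusted p = 1.78e-05). Of all genes tested, 95.6% had a lower log2 fold change than PLAUR. PLAUR has 4457 nt of annotated exon, and 1355 other protein-coding genes within 10% of that length had a median log2 fold change of 0.05. A short RNA on the same strand, RN7SL368P, lies inside PLAUR and was at 1.18 FPKM in the sgOTUD1-labelled libraries and 1.01 FPKM in sgNC.

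Tissue-type activator was higher as well. PLAT (ENSG00000104368, chromosome 8, 42175233 to 42207724, minus strand) was at 54.8, 54.7 and 52.7 FPKM in the sgOTUD1-labelled libraries, against 36.0, 35.5 and 35.1 FPKM in sgNC. Libraries within each group were close together and the groups far apart. The means were 54.1 ± 1.2 FPKM in the sgOTUD1-labelled libraries and 35.5 ± 0.46 FPKM in sgNC (SD, n = 3 each), a ratio of 1.52. PLAT had a log2 fold change of 0.59 with an SE of 0.032 (limma adjusted p = 1.57e-05). Genes of like exon length had a median log2 fold change of -0.04 (1502 genes), on the other side of 0 from PLAT.

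SERPINE2 encodes protease nexin, a serpin that inhibits urokinase, tissue-type activator and thrombin. It was far less abundant than the activators. SERPINE2 (ENSG00000135919, chromosome 2, 223975112 to 224039319, minus strand) was at 6.58, 6.23 and 6.63 FPKM in the sgOTUD1-labelled libraries, against 5.38, 5.50 and 5.08 FPKM in sgNC. The groups did not overlap, but the gap between them was smaller than for the activators. The means were 6.48 ± 0.22 FPKM in the sgOTUD1-labelled libraries and 5.32 ± 0.22 FPKM in sgNC (SD, n = 3 each), a ratio of 1.22. SERPINE2 had a log2 fold change of 0.24 with an SE of 0.048 (limma adjusted p = 0.00422). The call depended on the scaling between libraries. It ended with median-ratio rescaling (0.12, limma adjusted p = 0.0761) and with TPM (0.13, limma adjusted p = 0.126), which moved the median of all genes by -0.10 and -0.13.

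MMP14 encodes a membrane-bound collagenase that cuts pericellular matrix and activates pro-MMP2. It was the most abundant MMP transcript in both groups, and 98.3% of all genes tested had a lower mean level. MMP14 (ENSG00000157227, chromosome 14, 22836557 to 22849027, plus strand) was at 126, 142 and 143 FPKM in the sgOTUD1-labelled libraries, against 149, 148 and 159 FPKM in sgNC. Each library labelled sgOTUD1 was below each sgNC library, and replicate 1 of that group was the lowest of all. The means were 137 ± 9.3 FPKM in the sgOTUD1-labelled libraries and 152 ± 5.9 FPKM in sgNC (SD, n = 3 each), a ratio of 0.90. The log2 fold change was -0.15 (SE 0.056) and missed the threshold (limma adjusted p = 0.0553). It passed under alternatives that included median-ratio rescaling (-0.29, limma adjusted p = 0.00248), TPM (-0.30, limma adjusted p = 0.00199) and length correction (-0.22, limma adjusted p = 0.0112). It also passed with limma-voom on recovered reads (-0.15, adjusted p = 0.00191) and when genes under a mean of 5 FPKM were left out (-0.15, limma adjusted p = 0.0258). These 5 alternatives called 34.0%, 27.8%, 28.0%, 27.4% and 24.9% of all genes lower, in the same order. Leaving out sgOTUD1-labelled replicate 1 gave -0.09 (limma adjusted p = 0.111).

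MMP1, interstitial collagenase, and MMP10, a stromelysin, were near the limit of detection in both groups. MMP1 (ENSG00000196611, chromosome 11, 102789920 to 102798160, minus strand) was at 0.55, 0.53 and 0.25 FPKM in the sgOTUD1-labelled libraries, against 0.83, 0.28 and 0.58 FPKM in sgNC. These values rest on 18, 17 and 8 reads in the sgOTUD1-labelled libraries and on 29, 10 and 20 reads in sgNC, and the groups overlapped. The log2 fold change was -0.11 (SE 0.167, limma adjusted p = 0.607). It was -0.24 without sgNC replicate 2, -0.0076 without sgOTUD1 replicate 3 and -0.36 with length correction, and was called under none of these. The ratio of summed reads, 43 to 59, was 0.79 after scaling, with an exact 95% interval from 0.52 to 1.19 that covers counting error only. MMP1 lies just inside the limit for testing, with a mean over the 6 libraries of 0.504 FPKM against a minimum of 0.5 FPKM. MMP10 (ENSG00000166670, chromosome 11, 102770503 to 102780628, minus strand) lies outside it, with a mean of 0.102 FPKM.

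MMP10 was at 0.14, 0.18 and 0.17 FPKM in the sgOTUD1-labelled libraries, from 4, 5 and 5 reads. It was at 0.064 and 0.063 FPKM in sgNC replicates 1 and 2, from 2 reads each, and at 0 in replicate 3, where a count of 0 allows up to 0.098 FPKM. The groups did not overlap, but the counts were 14 and 4 reads in all. Their scaled ratio was 3.78, with an exact 95% interval from 1.19 to 15.8 for counting error only. Tested without a filter on low values, MMP10 had a log2 fold change of 0.16 (limma adjusted p = 0.102). Both genes lie within the span of WTAPP1, a transcribed pseudogene on the opposite strand at 1.35 FPKM in the sgOTUD1-labelled libraries and 1.31 FPKM in sgNC. Whether counting used strand is not stated, so reads of MMP1 or MMP10 and of WTAPP1 cannot be told apart where they overlap.

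Of the 2 inhibitors, TIMP1 was called and TIMP2 was not. TIMP1, a secreted inhibitor of most soluble MMPs, was higher in the sgOTUD1-labelled libraries. TIMP1 (ENSG00000102265, chromosome X, 47582313 to 47586789, plus strand) was at 7.64, 6.55 and 6.83 FPKM there, against 4.10, 3.97 and 4.60 FPKM in sgNC. The groups were apart, although the gene was low, with 164 to 196 reads per library labelled sgOTUD1 and 110 to 124 per sgNC library. The means were 7.01 ± 0.56 FPKM in the sgOTUD1-labelled libraries and 4.22 ± 0.33 FPKM in sgNC (SD, n = 3 each), a ratio of 1.66. TIMP1 had a log2 fold change of 0.62 with an SE of 0.071 (limma adjusted p = 0.00034). TIMP1 is the shortest of the 9 genes, with 1541 nt of exon, and 253 protein-coding genes of like length had a median log2 fold change of 0.34, with 62.5% of them called higher. With length correction TIMP1 was at 0.34 (limma adjusted p = 0.00617). The gene lies within the span of SYN1, on the opposite strand, which was at 0.011 FPKM in the sgOTUD1-labelled libraries and 0.030 FPKM in sgNC.

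TIMP2 also inhibits MMPs and, bound to MMP14, presents pro-MMP2 for activation. TIMP2 (ENSG00000035862, chromosome 17, 78852977 to 78925387, minus strand) was at 25.3, 27.7 and 26.0 FPKM in the sgOTUD1-labelled libraries, against 25.3, 26.5 and 26.3 FPKM in sgNC. The groups overlapped, with the lowest level of both at 25.3 FPKM. The log2 fold change was 0.01 (SE 0.044, limma adjusted p = 0.837) and turned with scaling, to -0.12 with median-ratio rescaling (limma adjusted p = 0.0387) and -0.14 with TPM (limma adjusted p = 0.0273). Set against the median of all genes under each scaling, TIMP2 was at -0.02 with the deposited FPKM, -0.05 with median-ratio rescaling and -0.04 with TPM. On that footing SERPINE2 was at 0.21, 0.20 and 0.23 and MMP14 at -0.18, -0.21 and -0.20, so these genes kept their direction.

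An exact two-sided permutation test of the 6 FPKM values gave p = 0.1 for PLAU, PLAUR, PLAT, SERPINE2, MMP10, MMP14 and TIMP1, the smallest p that 3 against 3 libraries allow. It gave 0.4 for MMP1 and 0.9 for TIMP2. Adjusted by Benjamini-Hochberg over these 9 tests, the smallest was 0.129. In the order of levels, PLAU, MMP14, PLAT, PLAUR, TIMP2, TIMP1, SERPINE2, MMP1 and MMP10 ran from high to low in the sgOTUD1-labelled libraries. The order in sgNC had MMP14 before PLAU and SERPINE2 before TIMP1, and was otherwise the same. Among neighbours in the order, TIMP1 and SERPINE2 had overlapping ranges in the sgOTUD1-labelled libraries, PLAUR and TIMP2 did in sgNC, and no other pair overlapped in either group. The plot of log2 fold changes under 5 scalings and fits shows how far each gene moves.

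**Figure D2:**
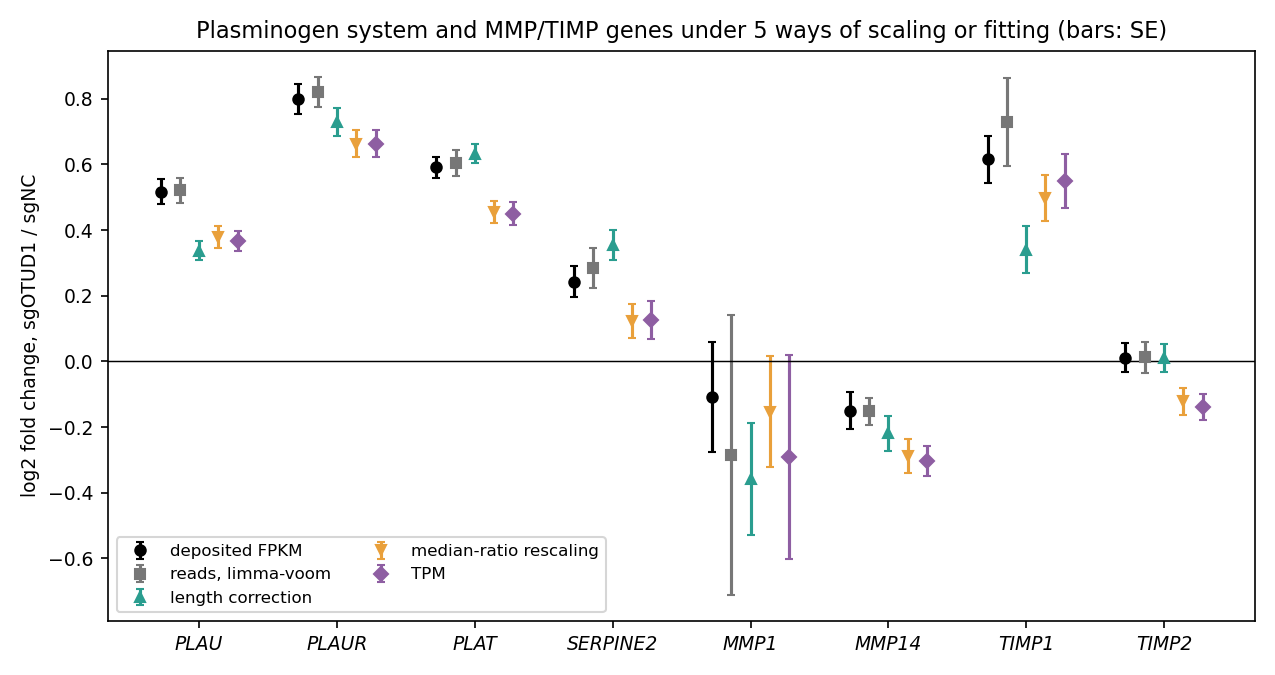
Log2 fold change of sgOTUD1 over sgNC (vertical axis, bars give the SE) for the 8 genes tested, under 5 ways of scaling or fitting. PLAU, PLAUR, PLAT, SERPINE2 and TIMP1 are above 0 and MMP1 and MMP14 below 0 in all 5, while TIMP2 is at 0.01 with deposited FPKM and at -0.12 and -0.14 with the rescalings.

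Ratios of 2 genes within a library, formed from the FPKM with no offset, do not depend on the scaling between libraries. Of 9 pairs listed, 7 could be computed, and the 2 with MMP10 could not because 1 library had no MMP10 reads. PLAU per PLAUR, protease to receptor, was lower in all 3 libraries labelled sgOTUD1. That ratio was 3.19, 3.15 and 3.11 in the sgOTUD1-labelled libraries, against 3.99, 3.77 and 3.89 in sgNC, a log2 difference of -0.30 (SE 0.026). The groups did not overlap. PLAU per PLAT was 2.77 ± 0.11 in the sgOTUD1-labelled libraries and 2.93 ± 0.15 in sgNC (SD, n = 3 each), with overlapping values and a log2 difference of -0.08 (SE 0.054). With length correction that difference was -0.30, since PLAU was then at 0.34 and PLAT at 0.63, so how far the 2 activators differed in their change depended on this correction.

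Both activators were higher relative to SERPINE2 in the sgOTUD1-labelled libraries. PLAT per SERPINE2 was 8.34, 8.77 and 7.94 in the sgOTUD1-labelled libraries, against 6.69, 6.44 and 6.91 in sgNC, a log2 difference of 0.32 (SE 0.051). PLAU per SERPINE2 was 23.1 ± 1.0 in the sgOTUD1-labelled libraries and 19.6 ± 1.6 in sgNC (SD, n = 3 each), a log2 difference of 0.24 (SE 0.075). The groups did not overlap in either ratio, but the second moved with gene length and was at -0.02 with length correction.

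Among the MMP and TIMP pairs, MMP14 per TIMP2 was 4.99, 5.12 and 5.49 in the sgOTUD1-labelled libraries, against 5.86, 5.59 and 6.02 in sgNC, a log2 difference of -0.16 (SE 0.052). The groups did not overlap, and the gap between them was small. TIMP1 per TIMP2 was 0.267 ± 0.033 in the sgOTUD1-labelled libraries and 0.162 ± 0.012 in sgNC (SD, n = 3 each), a log2 difference of 0.72 (SE 0.12), which was 0.33 with length correction. MMP1 per TIMP1 was 0.063 ± 0.024 in the sgOTUD1-labelled libraries and 0.133 ± 0.066 in sgNC (SD, n = 3 each), with overlapping values. The exact permutation p was 0.1 for the 5 pairs whose groups did not overlap and 0.3 for the other 2, or 0.14 and 0.3 adjusted over the 7 pairs, and 0.1 is the smallest p possible here. Groups were also apart for 64.0% of single genes tested, and the share among other gene pairs was not computed.

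**Figure D3:**
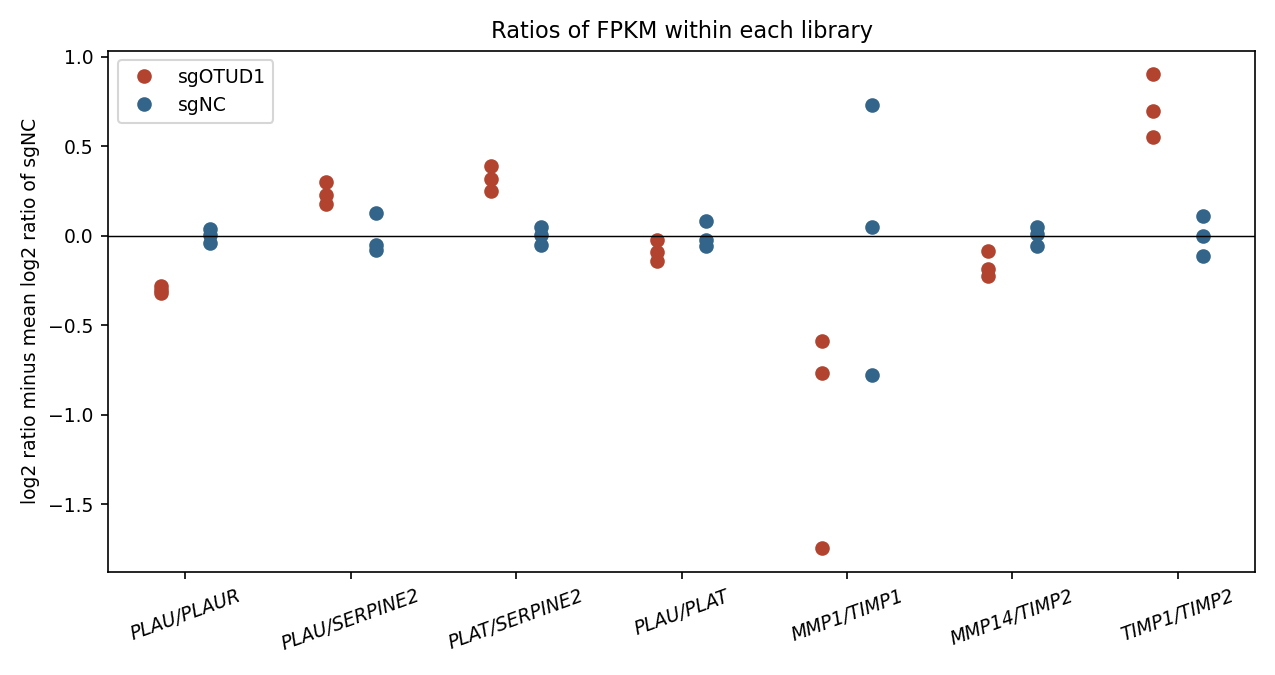
Log2 ratio of FPKM of 2 genes within each library, minus the mean log2 ratio of the sgNC libraries (vertical axis), for the 7 pairs that could be computed, with the 3 libraries labelled sgOTUD1 in red and the 3 sgNC libraries in blue. PLAU/PLAUR and MMP14/TIMP2 lie below 0 and PLAU/SERPINE2, PLAT/SERPINE2 and TIMP1/TIMP2 above it in all 3 libraries labelled sgOTUD1.

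Other genes of plasminogen activation were mostly higher. Of 27 genes listed, 17 were tested, of which 12 were higher (70.6%, against 31.2% of all genes tested), 4 lower (23.5%, against 24.7%) and 1 not called, with a median log2 fold change of 0.27 against 0.03 for all genes tested. Plasminogen itself (PLG) was listed at 0 in every library. S100A10, which with ANXA2 binds plasminogen at the cell surface, was at 508 ± 11 FPKM in the sgOTUD1-labelled libraries and 316 ± 9.1 FPKM in sgNC (SD, n = 3 each; limma adjusted p = 1.07e-05). ANXA2 was at 231 ± 4.0 FPKM in the sgOTUD1-labelled libraries and 182 ± 0.63 FPKM in sgNC (SD, n = 3 each, limma adjusted p = 7.16e-05). The log2 fold changes of S100A10 and ANXA2 were 0.68 and 0.34, or 0.41 and 0.45 with length correction. TFPI2, a Kunitz inhibitor of plasmin, was at 8.89 ± 0.29 FPKM in the sgOTUD1-labelled libraries and 3.94 ± 0.04 FPKM in sgNC. Its log2 fold change was 1.00 with an SE of 0.043 (limma adjusted p = 7.21e-06). THBD, the thrombin receptor thrombomodulin, was at 254 FPKM in libraries labelled sgOTUD1 and 190.5 FPKM in sgNC (limma adjusted p = 3.3e-05). With median-ratio rescaling or TPM 7 of the listed genes were higher, not 12, out of 17 and 19 tested. Of all genes, 22.3% of 14670 and 16.2% of 19388 tested were higher there.

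Among the genes of this list called lower, 3 are given here. LRP1, an endocytic receptor that clears complexes of activator and inhibitor, was at 5.46 FPKM in libraries labelled sgOTUD1 and 9.39 FPKM in sgNC (log2 fold change -0.69, limma adjusted p = 5.24e-05). LRP1 is a long gene, and its log2 fold change was -0.41 with length correction. F3, tissue factor, was at 309 FPKM in libraries labelled sgOTUD1 and 344 FPKM in sgNC (limma adjusted p = 0.00289), and the membrane protease ST14, matriptase, at 32.1 FPKM in libraries labelled sgOTUD1 and 37.0 FPKM in sgNC (limma adjusted p = 0.00656).

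Among the other MMP genes, MMP7 and MMP28 had the largest increases. Of 20 genes listed, 7 were tested, of which 5 were higher (71.4%, against 31.2% of all genes tested), 1 lower (14.3%, against 24.7%) and 1 not called, with a median log2 fold change of 0.18. MMP7, matrilysin, was at 13.9, 13.5 and 13.5 FPKM in the sgOTUD1-labelled libraries, against 6.03, 7.16 and 7.73 FPKM in sgNC. On the log2 scale the fold change was 0.88 with an SE of 0.079 (limma adjusted p = 0.000107), and 0.65 with length correction. MMP28, epilysin, was at 31.1 ± 0.76 FPKM in libraries labelled sgOTUD1 and 21.4 ± 1.1 FPKM in sgNC (SD, n = 3 each; limma adjusted p = 9e-05), with a log2 fold change of 0.52 that was 0.33 with length correction. The membrane-anchored MMP17 (6.40 FPKM in libraries labelled sgOTUD1 and 5.13 FPKM in sgNC) and MMP15 (38.5 FPKM in libraries labelled sgOTUD1 and 34.2 FPKM in sgNC) and the gelatinase MMP2 (9.80 FPKM in libraries labelled sgOTUD1 and 8.53 FPKM in sgNC) had smaller differences. Their limma adjusted p were 0.0166, 0.0253 and 0.0257, and MMP2 was named after its value was seen.

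Calls of those last 3 genes did not hold under rescaling or length correction. There 2 genes were called higher, of 7 tested with median-ratio rescaling, 7 with length correction and 10 with TPM. Of all genes tested, 22.3%, 26.3% and 16.2% were called higher, in the same order. The calls of MMP17, MMP15 and MMP2 also ended without sgNC replicate 1, without sgNC replicate 2 or without sgOTUD1 replicate 2. Each of these fits left 2 called higher, where 27.9%, 28.3% and 27.9% of all genes tested were, in the same order. MMP13, a collagenase, was the 1 gene called lower, at 2.62 ± 0.32 FPKM in libraries labelled sgOTUD1 and 3.99 ± 0.32 FPKM in sgNC (SD, n = 3 each). MMP13 had a log2 fold change of -0.46 with an SE of 0.083 (limma adjusted p = 0.00271). MMP11, a stromelysin, was not called, at 2.00 FPKM in libraries labelled sgOTUD1 and 2.17 FPKM in sgNC.

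MMP1 and MMP10 belong to a cluster of 9 MMP genes on chromosome 11, from 102520508 to 102955734, all on the minus strand. The genes at the ends of the cluster were the only ones of it above 1 FPKM. MMP7, at one end, was higher in the sgOTUD1-labelled libraries, and MMP13, at the other, was lower. The 7 genes between them, including MMP1 and MMP10, had group means of at most 0.56 FPKM, and MMP27 was listed at 0 in every library. The 2 called genes of the cluster thus had opposite directions.

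Over all 23 MMP genes, FPKM summed to 230.1, 251 and 246 in the sgOTUD1-labelled libraries, against 230.2, 229.7 and 247 in sgNC, and these ranges overlapped. MMP14 made up 54.8%, 56.5% and 58.1% of that sum in the sgOTUD1-labelled libraries, against 64.5%, 64.5% and 64.1% in sgNC. Its share was thus lower in all 3 libraries labelled sgOTUD1. The plot of MMP and TIMP levels shows that MMP14, TIMP3, MMP15, MMP28 and TIMP2 were the most abundant of these genes in both groups.

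**Figure D4:**
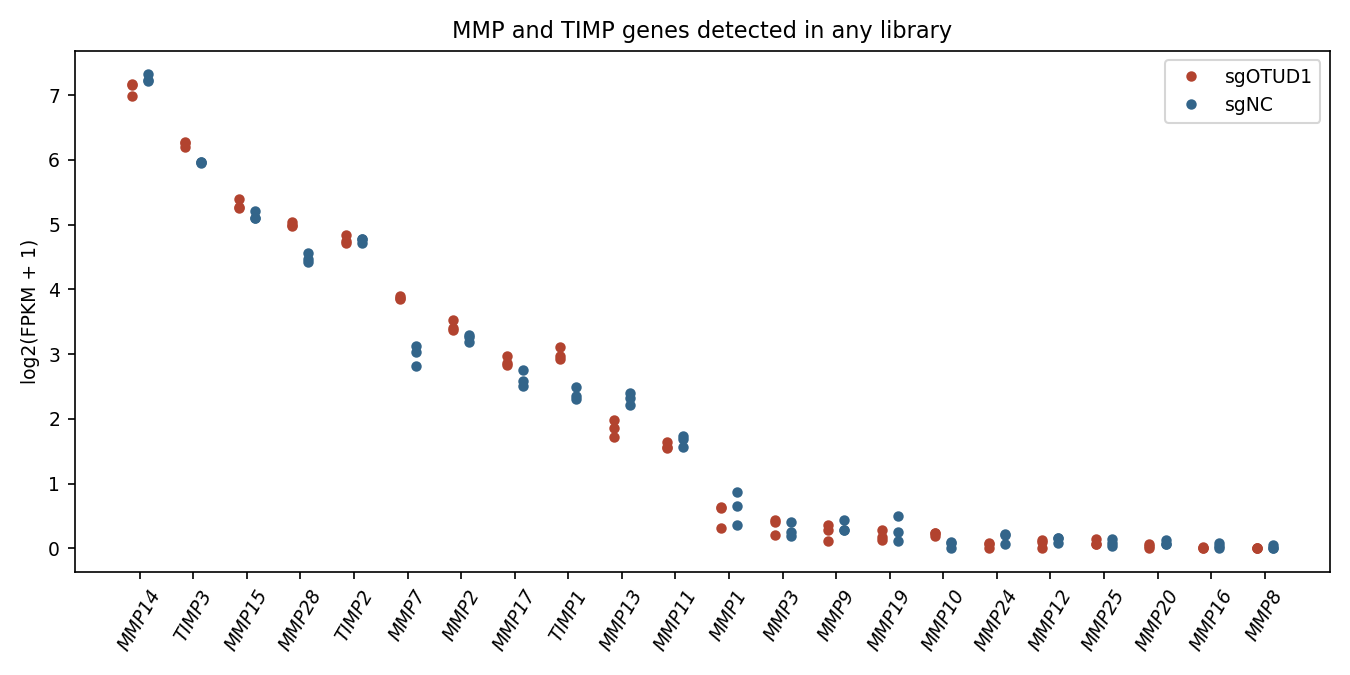
Level, as log2(FPKM + 1), of the 22 MMP and TIMP genes above 0 in any library, ordered by mean, in the 3 libraries labelled sgOTUD1 (red, left of each position) and the 3 sgNC libraries (blue, right). MMP7 is higher and MMP13 lower in the sgOTUD1-labelled libraries, and the genes from MMP1 rightwards lie below 1 on this scale.

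Genes that inhibit, process or induce MMPs had calls in both directions. Of 16 listed, 12 were tested, with 5 higher, 2 lower and 5 not called. These shares of 41.7% and 16.7% stand beside 31.2% and 24.7% of all genes tested. The list had a median log2 fold change of -0.05, which was 0.12 with length correction. With median-ratio rescaling or TPM 5 were lower, where 34.0% and 27.8% of all genes were. TIMP3, the matrix-bound inhibitor, was at 74.7 ± 2.4 FPKM in libraries labelled sgOTUD1 and 61.4 ± 0.19 FPKM in sgNC (SD, n = 3 each; limma adjusted p = 0.000431), well above the level of TIMP1. BSG, an inducer of MMPs also called basigin, was at 313 FPKM in libraries labelled sgOTUD1 and 209 FPKM in sgNC (limma adjusted p = 0.000133), and CD63, a tetraspanin that binds TIMP1, at 84.7 FPKM in libraries labelled sgOTUD1 and 59.4 FPKM in sgNC (limma adjusted p = 0.000505). TFPI2, given above, and THBS1 (62.3 FPKM in libraries labelled sgOTUD1 and 55.9 FPKM in sgNC, limma adjusted p = 0.0116, named after its value was seen) complete the 5. The call of THBS1 ended with median-ratio rescaling (log2 fold change 0.02) and with TPM (0.0025). FURIN, the convertase that activates pro-MMP14, was at 9.44 FPKM in libraries labelled sgOTUD1 and 12.1 FPKM in sgNC (log2 fold change -0.33, limma adjusted p = 0.0027), and LCN2, which binds MMP9, at 266 FPKM in libraries labelled sgOTUD1 and 328 FPKM in sgNC (-0.30, limma adjusted p = 0.000614).

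Matrix proteins that these proteases cut were mostly lower in the sgOTUD1-labelled libraries. Of 30 listed, 21 were tested, with 17 lower (81.0%, against 24.7% of all genes tested), 1 higher and 3 not called and a median log2 fold change of -0.46. Fibronectin (FN1) was at 91.4 ± 3.8 FPKM in libraries labelled sgOTUD1 and 169 ± 3.8 FPKM in sgNC, tenascin C (TNC) at 5.91 ± 0.20 FPKM in libraries labelled sgOTUD1 and 12.3 ± 0.21 FPKM in sgNC and perlecan (HSPG2) at 16.0 ± 0.68 FPKM in libraries labelled sgOTUD1 and 30.7 ± 0.64 FPKM in sgNC (SD, n = 3 each; limma adjusted p = 8.32e-06, 7.78e-06 and 9.01e-06). The laminin chain LAMC1 was at 66.9 FPKM in libraries labelled sgOTUD1 and 92.6 FPKM in sgNC (limma adjusted p = 2.1e-05), while LAMB3, of the same laminin family, was higher at 271 FPKM in libraries labelled sgOTUD1 and 207 FPKM in sgNC (limma adjusted p = 0.000153). The tested genes of this list had a median exon length of 10758 nt, against 4121.5 nt for all genes tested. Their median log2 fold change was -0.30 with length correction. With that correction 15 of the 21 were called lower and 3 higher, where 28.0% and 26.3% of all genes tested were. COL1A1, the most abundant of the fibroblast markers above, is among the 17 called lower.

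ADAM and ADAMTS proteases, relatives of the MMPs that shed receptors or cut proteoglycans, were tested for 8 of 15 genes, with 2 higher, 4 lower and 2 not called, or 25% and 50% against 31.2% and 24.7% of all genes tested. Their median log2 fold change was -0.17, or -0.01 with length correction. ADAM15 (109 FPKM in libraries labelled sgOTUD1 and 83.8 FPKM in sgNC, limma adjusted p = 0.000259) and ADAM8 (40.9 FPKM in libraries labelled sgOTUD1 and 35.1 FPKM in sgNC, limma adjusted p = 0.00077) were higher. ADAMTS1 (14.1 FPKM in libraries labelled sgOTUD1 and 21.2 FPKM in sgNC, limma adjusted p = 2.54e-05) and ADAM19 (8.37 FPKM in libraries labelled sgOTUD1 and 11.8 FPKM in sgNC, limma adjusted p = 0.000277) were lower. ADAM10 (8.89 FPKM in libraries labelled sgOTUD1 and 10.6 FPKM in sgNC, limma adjusted p = 0.00412) was lower too, but its log2 fold change of -0.23 was 0.00075 with length correction. ADAM9 (47.2 FPKM in libraries labelled sgOTUD1 and 53.9 FPKM in sgNC, limma adjusted p = 0.0176) lost its call without sgNC replicate 2, sgOTUD1 replicate 2 or sgOTUD1 replicate 3. ADAM8 lost its call with TPM (0.07).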

How the data were processed

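Per the labels' protocols, total RNA was made into libraries by the NEBNext Ultra kit. Sample titles give the groups and replicate numbers. The deposited table holds FPKM, as its headers state. FeatureCounts 1.5.0-p3, DESeq2 1.20.0 and hg38 appear in the submitters' processing notes. Aligner, annotation and strand setting are not stated in the labels.

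GENCODE 29 held all 58735 gene identifiers and gave positions and exon lengths (union of a gene's exons). For 100% of values, FPKM times exon length was a whole multiple of 1 number per library, within 0.001 reads, and this gave back the reads. Replicates of a group differed beyond sampling noise (chi-square per gene 2.06 to 3.77, against 61.1 to 71.1 between libraries of different groups). Each library was counted once, but this spread does not show that replicates are separate cultures. Same-numbered libraries did not deviate together (correlations -0.051 to 0.0016).

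Genes with a mean of 0.5 FPKM or more (14658) were tested by limma 3.58.1 in R 4.3.3 on log2(FPKM + 1), with trend and robust options, without covariates, two-sided and Benjamini-Hochberg adjusted. This scale understates fold changes of low genes. Length correction subtracted, per library, a natural spline (4 degrees of freedom) of log2 exon length, fitted to nuclear protein-coding genes. The fits were tested on simulated reads. Other genes named are up to 4 higher and 4 lower per list, by smallest adjusted p. The 9 genes, the lists and the alternatives were chosen with earlier results of these data known. RefSeq promoters were used for 6 of the 9 genes. Other steps used SciPy 1.17.1 and NumPy 2.4.6 under Python 3.11.15. Intervals and floors cover counting error only. A gene of the related lists is not reported here.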

Additional observations from a re-analysis of the deposited data

How the results depend on the processing

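PLAU, PLAUR, PLAT and TIMP1 stayed called higher under all 15 alternatives run, with limma log2 fold changes without 1 replicate of 0.50 to 0.55 for PLAU, 0.76 to 0.83 for PLAUR, 0.58 to 0.61 for PLAT and 0.56 to 0.67 for TIMP1. SERPINE2 lost its call with median-ratio rescaling (0.12) and TPM (0.13), and was at 0.21 to 0.27 without 1 replicate. MMP14 gained a call with the replicate block (-0.15), with a mean FPKM of at least 5 (-0.15), with recovered reads (-0.15), with length correction (-0.22), with median-ratio rescaling (-0.29) and with TPM (-0.30), and was at -0.18 to -0.09 without 1 replicate. TIMP2 turned with median-ratio rescaling (-0.12) and TPM (-0.14), and ran from -0.024 to 0.039 without 1 replicate. Of the 9 genes, 0 were called lower in the main test, 1 with the replicate block, a mean FPKM of at least 5, length correction or recovered reads, and 2 with median-ratio rescaling or TPM. PLAU per SERPINE2 turned with length correction (-0.017).

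Of other plasminogen genes, 7 were higher with median-ratio rescaling or TPM. Of other MMP genes, 2 were higher with median-ratio rescaling, TPM or length correction, 3 without a filter and 2 to 5 without 1 replicate, and 0 were lower at a mean FPKM of at least 5, where MMP13 was not tested. TPM brought 19388 genes past the minimum level. Of MMP regulators, 5 were lower with median-ratio rescaling or TPM and 4 with recovered reads or without trend and robust options. Of matrix substrates, 3 were higher with length correction, and of ADAM genes 1 was higher with TPM. When genes under a mean of 5 FPKM were left out, 1757 genes were called lower, against 3615 in the main test, because fewer genes were tested. ADAM10 was at 0.00075 with length correction. Where no cause is given, the cause was not tested. Same-numbered libraries did not deviate together, which does not show whether they were handled as pairs. With the replicate block 4431 genes were higher and 3360 lower, against 4577 and 3615 in the main test. Depth limits MMP1 and MMP10, with at most 29 and 5 reads in any library. MMP1 passed the filter in 2 of the 6 fits without 1 replicate and was not tested at a mean FPKM of at least 5, and the ratios with MMP10 were not run.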
